A study of Mus musculus with 16 samples.

Results

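The subject is the comparison of leukemic with naive stem and progenitor cells from CD93-deficient mice: 3 libraries of leukemia stem cells (LSCs) against 2 libraries of naive LSK cells. LSK cells lack lineage markers and carry Sca-1 and c-Kit, and this fraction of bone marrow holds the blood-forming stem cells. Its members are the features above the lowest value of the table, 0.003, in all 5 libraries, and they numbered 679 of 26595. Of these, 675 also passed the filter on low values and were tested. For comparison, 3956 features were above the lowest value in all 5 wild-type libraries. Values are RPKM, reads per kilobase of transcript and per 1e+06 mapped reads, and differences are on the scale log2(RPKM + 1), which understates the change of genes with low values.

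Both groups carried the genotype written CD93-/- (KO) and were taken from bone marrow at postnatal week 8. The labels give the strain C57BL/6 for the wild-type samples and none for the deficient ones. For the leukemia, sorted LSK cells were transduced with BCR-ABL1-GFP on 2 occasions and injected intravenously into BL/6 recipients that had not been irradiated, so that the recipients kept their own CD93-proficient blood and stroma, and LSCs were sorted once chronic myeloid leukemia (CML) had developed. The naive LSK cells were neither transduced nor transplanted, so leukemia, transduction and transplantation cannot be told apart in this comparison. The wild-type (WT) libraries, 3 LSC and 2 LSK, are used below only to set the differences side by side, and the series holds 16 libraries in all.

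BCR-ABL1 is a constantly active tyrosine kinase that drives CML by making myeloid progenitors proliferate without growth factors, and LSCs are the cells that sustain the disease. CD93 is a C-type lectin-like surface receptor of immature blood cells, monocytes and endothelium. As stem cells commit to the granulocyte lineage they first fill azurophil granules with myeloperoxidase and serine proteases at the promyelocyte stage, and later make the proteins of secondary granules and calprotectin.

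The labels were checked on Cd93 and on the sorting markers first. Cd93 lies on the minus strand of chromosome 2 (148436640 to 148443563, GRCm38). It was at 1.01 and 2.10 RPKM in KO LSK 1 and 2, at 0.003 in KO LSC 1 and 3, and at 44.3 in KO LSC 2. The library labelled KO LSC 2 thus goes against its label, since 44.3 is above each of the WT libraries, whose highest value is 22.9. Cd93 was at 5.34 and 22.9 in WT LSK 1 and 2 and at 0.003, 0.003 and 5.74 in WT LSC 1 to 3. A value of 0.003 in KO LSC 1 and 3 therefore does not tell the genotypes apart. Which exons the knockout allele lacks is not stated. Libraries are named here by their labels, and the counts of calls are also given without this library. Kit, the gene of c-Kit, was at 0.003 in all 3 KO LSC libraries against 23.6 and 14.2 in KO LSK, and Ly6a, the gene of Sca-1, was at 0.003, 0.003 and 1.82 against 529 and 626. Both genes passed the test as lower (adjusted p = 0.0104 for Kit and 1.18e-04 for Ly6a, limma). Kit, at −1.97, missed the threshold after quantile normalization with an adjusted p of 0.0993. The defining transcripts of an LSK-type cell were thus near or at the lowest value in the leukemic libraries. This does not set them apart, since 61.7% of all tested genes fell. Of the features seen in both KO LSK libraries, 70.8% had no signal in any leukemic library. Neither gene is a member, and the part of low detection in their falls was not tested. Procr and Cd34, further stem cell markers, were at 0.003 in all 3 KO LSC libraries apart from 1.31 for Cd34 in KO LSC 1.

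Far fewer features carried signal in the leukemic libraries. Signal above 0.003 was present for 2967, 2310 and 1230 features in KO LSC 1 to 3 and for 14906 and 14279 in KO LSK 1 and 2. The sequencing depth, as far as the steps between low values show it, was 3.70, 3.86 and 2.76 M reads (1e+06) against 7.88 and 5.53, so depth moved with the groups and its part in the results was not tested. The LSC estimates rest on 74, 68 and 46 low values shared with KO LSK 1. As a check, of the 20 to 30 low values of single-exon genes in each LSC library, 50% to 75% lay within 0.1 of a whole read, where evenly spread values would give 20%. Between libraries, Pearson correlations of log2 values over the 679 members, which are genes and not replicates, were 0.987 within KO LSK, 0.639 to 0.764 within KO LSC and 0.602 to 0.788 between the groups. The range within the leukemic libraries overlapped that between leukemic and naive ones. Nothing in the labels ties a replicate to an animal of its own, and p-values then measure only the spread between these libraries, which may be technical. Fewer cells of a type and less RNA per cell cannot be told apart in such bulk samples.

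Detection in the leukemic libraries followed the level in naive cells. Of 13458 features above the lowest value in both KO LSK libraries, 9524 (70.8%) were detected in no KO LSC library, 2305 in 1, 950 in 2 and 679 (5.05%) in all 3, and the median KO LSK level of these classes was 9.48, 32.0, 93.4 and 228 RPKM. The members are therefore genes that were already abundant in naive cells, with few that are low there. The 70.8% set beside gene lists below covers features of every naive level. It is not matched to the level of a list, and an abundant list would be detected more often for that reason alone. A gene that fell to the lowest value in any leukemic library is left out of the set by its rule, so the set holds few of the falls, and a gene low in KO LSK can be a member only if the leukemic libraries hold it. At the edge of the rule stood 961 features detected in exactly 4 of the 5 libraries, and for 698 of them the missing library was KO LSC 3. The lowest member value was 0.067, 0.086 and 0.051 RPKM in KO LSC 1 to 3, and 15 features were detected in all 3 KO LSC libraries but not in both KO LSK libraries, all unnamed gene models or predicted genes. The members held 58.7%, 51.3% and 75.6% of the summed RPKM of KO LSC 1 to 3 and 31.4% and 37.0% of that of KO LSK 1 and 2.

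**Figure D1:**
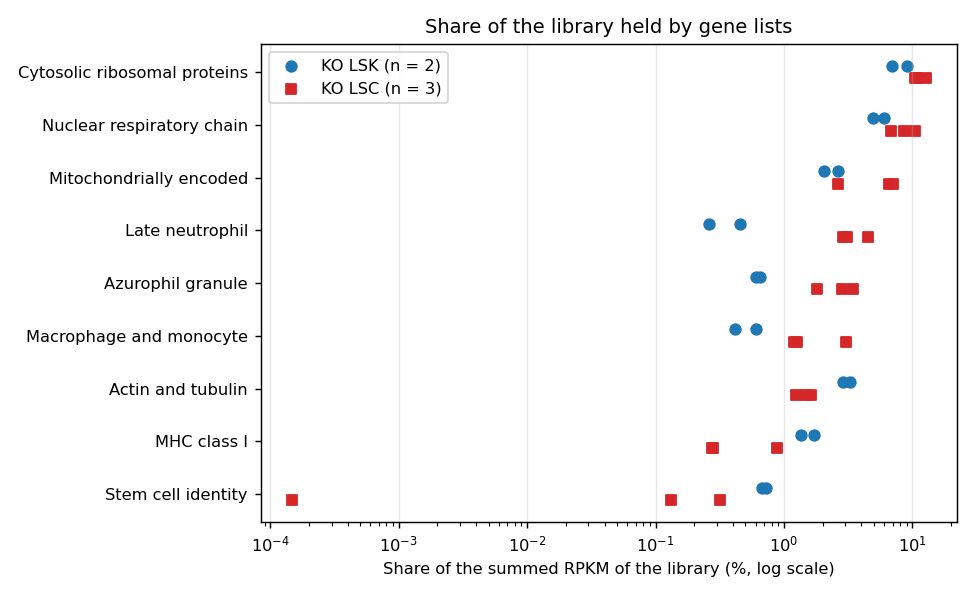
Share of the summed RPKM of each library (x axis, percent, log scale) held by the genes of 9 gene lists (y axis), with 1 point per library: circles for the 2 KO LSK and squares for the 3 KO LSC libraries. The 3 myeloid lists sit higher in every KO LSC than in either KO LSK library, and the actin and tubulin, MHC class I and stem cell lists sit lower.

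Azurophil granule, calprotectin and alpha-globin transcripts were among the rises of the 675 tested members, and actin, tubulin, MHC class I and U3 small nucleolar RNA transcripts were among the falls. By limma with Benjamini-Hochberg adjustment over all 13485 tested genes, 73 members rose (10.8%) and 52 fell (7.7%). Over all tested genes, most of them at the lowest value in some leukemic library, 76 rose (0.564%) and 8315 fell (61.7%). Because so many genes fell, an unadjusted p of up to 0.0311 passed the threshold of 0.05 after adjustment. The median log2 difference was 0.02 over the members and −3.06 over all tested genes. Quantile normalization moved these medians to 1.45 and −1.14 and the split of called members from 73 rises and 52 falls to 219 and 33. The direction of a difference can therefore depend on the scaling, and not only near 0. The sign turned for 10 named genes that passed before or after quantile normalization, among them Nip7 (−5.25) and Trac (−3.68) as deposited.

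The count of calls fell when a naive library was left out, which leaves 1 library in that group. The spread then comes from the other groups alone. A call lost in this way, here and below, need not reflect the values of the library left out. Without the library labelled KO LSC 2, 75 members rose and 58 fell, and these included 61 of the 73 rises and 42 of the 52 falls. Without KO LSK 1 the counts were 31 and 23, and without KO LSK 2 they were 46 and 20. When the model and the adjustment were confined to the members and the 5 KO libraries, an alternative chosen after the data were seen, 6 members rose and 9 fell. Of the 73 rises, 28 passed in each of 8 other settings and 23 of these also after leaving out each of the 5 libraries in turn. The corresponding numbers among the falls were 7 and 5. Among the falls, 20 had a value under 1 RPKM in at least 1 KO LSC library, against 2 of the rises.

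Ranks within a library do not depend on its total. Each member was given a percentile rank among the 679 in its library, from 0 for the lowest to 100 for the highest. The limma test of the normal scores of these ranks over the 5 libraries called 0 of 679 members (0.0%), while 157 (23.1%) had an unadjusted p under 0.05, 85 higher (12.5%) and 72 lower (10.6%). Ranks of the 3 KO LSC libraries lay wholly above those of both KO LSK libraries for 170 members (25.0%) and wholly below for 130 (19.1%). In RPKM the corresponding counts were 163 (24.0%) and 121 (17.8%). All 73 rises and all 52 falls were separate in RPKM, so separation adds nothing to the call of a gene named below. In rank, 67 of the rises and 44 of the falls were also separate. The highest median ranks in KO LSC belonged to Camp, Ctsg, Rnr2, S100a8, CYTB, Rps9, Atpif1, Apoe, Shfm1 and S100a9, so granule and calprotectin genes stood beside a mitochondrial ribosomal RNA, a respiratory subunit and a ribosomal protein at the top of the leukemic libraries.

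**Figure D2:**
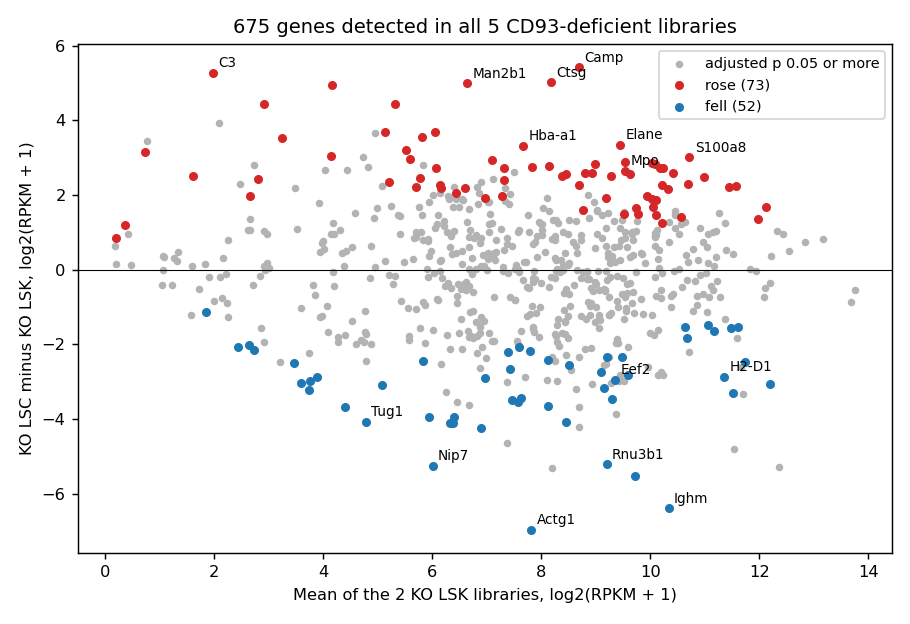
Each point is 1 of the 675 tested members, placed by its mean level in the 2 KO LSK libraries (x axis, log2 of RPKM + 1) and the difference between KO LSC and KO LSK (y axis, log2 scale). Red points are the 73 that rose and blue points the 52 that fell, with Camp and Ctsg near the top and Actg1 and Ighm at the bottom.

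Most members on the azurophil granule list rose. The list is wider than its name and also holds genes such as Hp, Calr and Igfbp4. Of 19 listed genes 7 were members, of which 5 rose and 0 fell, against 10.8% and 7.7% of all members, and 2 did not pass, and the median log2 difference was 2.66, where all members gave 0.02. Ctsg (chromosome 14, 56099881 to 56102574, minus strand, protein-coding), which encodes the granule protease cathepsin G, was at 6389, 8537 and 14377 RPKM in KO LSC 1 to 3 and at 223 and 353 in KO LSK 1 and 2. All 3 leukemic values lay far above both naive ones, the log2 difference was 5.03, SE 0.46, adjusted p = 4.83e-05, and the mean percentile rank went from 54.2 to 98.0. Elane, the neutrophil elastase gene, was at 3385, 10967 and 9496 RPKM against 594 and 801, a log2 difference of 3.35, SE 0.50, adjusted p = 6.88e-04. Mpo, the gene of myeloperoxidase, was at 3780, 4184 and 6368 RPKM against 819 and 660.2, with a log2 difference of 2.66, SE 0.43, adjusted p = 0.00102. KO LSC 1 had the lowest leukemic value of both Elane and Mpo. Prtn3, the gene of proteinase 3, was at 3101, 5910 and 3293 RPKM against 834 and 1363 (log2 difference 1.88, SE 0.42, adjusted p = 0.00573). Hp, which encodes the hemoglobin-binding protein haptoglobin, was at 643, 248 and 455 RPKM against 48.3 and 40.8 (log2 difference 3.20, SE 0.86, adjusted p = 0.0125). Hp did not pass without KO LSK 2. The members Calr, a chaperone gene, and Srgn, the gene of the granule proteoglycan serglycin, did not pass. Srgn was at 663, 3121 and 1.61 RPKM over KO LSC 1 to 3 against 1149 and 1191, so that 1 library was high, 1 middling and 1 almost empty.

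Some listed genes outside the set fell. Lyz2, the lysozyme gene of mature myeloid cells, was at 0.003 in all 3 KO LSC libraries against 1125 and 853 RPKM in KO LSK (adjusted p = 7.17e-04, limma), as were Igfbp4 and Cst7, which also fell. Over all 19 tested genes of the list, 5 rose and 4 fell, against 0.564% and 61.7% of all tested genes. Of the 19, 4 were at the lowest value in all 3 leukemic libraries, against 70.8% of all features seen in both KO LSK libraries. All 19 genes of the list were above the lowest value in both KO LSK libraries, but 13, 13 and 7 of them in KO LSC 1 to 3. The list nevertheless held 1.82%, 2.83% and 3.44% of the summed RPKM in KO LSC 1 to 3 against 0.653% and 0.607% in KO LSK. Its share of the library was thus higher in each leukemic library while fewer of its genes were seen.

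To show the regulatory sequence in front of genes that rose together, the 150 bases before the start site are printed for the 4 examples Ctsg, S100a9, C1qb and C3, from RefSeq on GRCm38.p6, 5′ to 3′ on the gene's strand. Capitals mark matches on either strand to the ETS core GGAA, the core bound by factors such as PU.1, and to a C/EBP core, TTNNGNAA, of the factors that drive granulocyte genes, and matches may overlap. The windows lie at chr14:56102575-56102724, chr3:90695722-90695871, chr4:136886201-136886350 and chr17:57228137-57228286, all for the minus strand.
Ctsg: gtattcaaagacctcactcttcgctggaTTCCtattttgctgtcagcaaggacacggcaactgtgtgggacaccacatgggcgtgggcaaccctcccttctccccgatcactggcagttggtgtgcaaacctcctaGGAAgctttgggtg
S100a9: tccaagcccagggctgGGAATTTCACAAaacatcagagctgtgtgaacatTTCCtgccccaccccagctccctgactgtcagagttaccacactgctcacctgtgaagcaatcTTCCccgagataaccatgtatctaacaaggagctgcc
C1qb: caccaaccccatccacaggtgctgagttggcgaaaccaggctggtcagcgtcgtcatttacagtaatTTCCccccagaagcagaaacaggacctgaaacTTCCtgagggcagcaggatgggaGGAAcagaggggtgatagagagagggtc
C3: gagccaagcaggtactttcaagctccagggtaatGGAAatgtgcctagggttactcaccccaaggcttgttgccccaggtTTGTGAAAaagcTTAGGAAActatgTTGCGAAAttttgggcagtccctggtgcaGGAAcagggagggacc
Ctsg had 2 ETS matches and 0 C/EBP matches, S100a9 had 3 and 1, C1qb 3 and 0, and C3 3 and 3. Of 32851 promoter windows of the same length, 80.8% held the ETS core and 22.7% the C/EBP core. A match describes the letters in the window and is not a measured binding site.

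Among late neutrophil genes, 5 of 27 listed were members, of which 3 rose and 0 fell, against 10.8% and 7.7% of all members, with a median log2 difference of 2.72. Camp (chromosome 9, 109847379 to 109849617, minus strand), the gene of the secondary granule peptide cathelicidin, was at 9311, 18020 and 18559 RPKM in KO LSC 1 to 3 against 643 and 176 in KO LSK. It had the largest log2 difference of all members, 5.43, SE 0.74, adjusted p = 4.38e-04, and its mean rank went from 61.1 to 99.2, although the naive libraries themselves differed. S100a8 and S100a9 encode the subunits of calprotectin, a calcium- and zinc-binding protein of neutrophils and monocytes. S100a8 was at 11100, 12064 and 18539 RPKM against 1915 and 1453, a log2 difference of 3.02, SE 0.47, adjusted p = 8.35e-04. S100a9 was at 10858, 3066 and 13830 RPKM against 1474 and 936, a log2 difference of 2.72, SE 0.75, adjusted p = 0.0143. The library labelled KO LSC 2 held the lowest S100a9 value of the leukemic libraries while its S100a8 value was in the middle, and S100a9 did not pass without KO LSK 1, without KO LSK 2 or after quantile normalization (1.76, adjusted p = 0.0695). Csf3r, the receptor of granulocyte colony-stimulating factor, was at 115, 24.4 and 0.094 RPKM over KO LSC 1 to 3 against 69.6 and 45.0 and did not pass. Ngp, a further secondary granule gene and a defining marker of this list, was at 0.003 in all 3 KO LSC libraries against 266 and 89.7 RPKM in KO LSK and fell (adjusted p = 0.0367, limma), but not after quantile normalization (adjusted p = 0.123). Padi4 and Lrg1 of the list were likewise at 0.003 in all 3 KO LSC libraries and fell. Over all 23 tested genes of the list 3 rose and 4 fell, against 0.564% and 61.7% of all tested genes. Of the 27, 15 were at the lowest value in all 3 leukemic libraries. Of the 19 seen in both KO LSK libraries this held for 7, against 70.8% of all such features. The summed RPKM of the list was 32044, 41778 and 55175 in KO LSC 1 to 3 against 5204 and 3311 in KO LSK, and the part of mature granulocytes in these values was not tested.

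Macrophage and complement genes gave a mixed picture. Of 23 listed macrophage and monocyte genes 5 were members, of which 2 rose and 0 fell, against 10.8% and 7.7% of all members (median log2 difference 1.52). Over all 23 tested genes of the list 2 rose and 6 fell, against 0.564% and 61.7% of all tested genes. Spic, Axl and Cd5l were among the falls. All 23 were seen in both KO LSK libraries, and 7 were at the lowest value in all 3 leukemic libraries, against 70.8% of all such features. Apoe, which encodes the lipid carrier apolipoprotein E of macrophages, was at 23504, 10268 and 5863 RPKM in KO LSC 1 to 3 against 2165 and 1864 in KO LSK, a log2 difference of 2.48, SE 0.58, adjusted p = 0.00676. C1qb, a chain of the complement starter C1q, was at 4119, 2927 and 4681 RPKM against 1065 and 893 (log2 difference 1.97, SE 0.57, adjusted p = 0.0179). C1qb did not pass without either naive library. After quantile normalization neither Apoe (1.68, adjusted p = 0.126) nor C1qb (1.24, adjusted p = 0.15) passed. C1qc, the partner chain, was at 2562, 1917 and 977 RPKM against 692 and 499 and missed the threshold (adjusted p = 0.0602). The third chain gene, C1qa, is no member: it read 1146, 42.0 and 0.003 RPKM in KO LSC 1 to 3 against 605 and 498. The 3 chains, which form 1 complex, therefore did not move alike across the leukemic libraries, with KO LSC 3 high in C1qb and empty in C1qa. Csf1r, the growth factor receptor that defines the lineage, was at 0.003 in all 3 KO LSC libraries. The summed RPKM of the macrophage list was 33603, 16180 and 15737 against 7033 and 5301, and the part of macrophages was not tested.

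The genes C3, Cfp, Man2b1, Ptgr1 and Clec4a2 also rose and are described singly, since they belong to no common list. C3 (chromosome 17, 57203970 to 57228136, minus strand), the central complement component, was at 139.7, 65.7 and 304 RPKM in KO LSC 1 to 3 against only 4.38 and 1.48 in KO LSK, a log2 difference of 5.28, SE 0.89, adjusted p = 0.00134. It was among the lowest members in naive cells, at a mean rank of 4.0, and reached 40.7 in the leukemic ones. Cfp, the gene of properdin, which stabilizes the complement convertase, was at 3994, 614 and 1281 RPKM against 296 and 159.5 (log2 difference 2.75, SE 0.84, adjusted p = 0.0217) and did not pass without KO LSK 2. Man2b1, a lysosomal mannosidase, was at 1381, 6453 and 3532 RPKM against 107 and 89.5. Its log2 difference was 5.0, SE 0.88, adjusted p = 0.00162, and its rise in mean rank, from 34.4 to 90.3, was the largest of all members. Ptgr1, a reductase that inactivates leukotriene B4 and prostaglandins, was at 646, 1304 and 718 RPKM against 47.4 and 29.8 (log2 difference 4.45, SE 0.73, adjusted p = 0.00115). Clec4a2, an inhibitory lectin receptor of myeloid cells, was at 153, 300.4 and 3297 RPKM against 21.4 and 12.5 (log2 difference 4.94, SE 1.33, adjusted p = 0.0129). For Clec4a2 the height of the mean came from KO LSC 3, and the call was lost without either naive library, whereas C3, Man2b1 and Ptgr1 kept theirs in every case with 1 library left out.

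**Figure D3:**
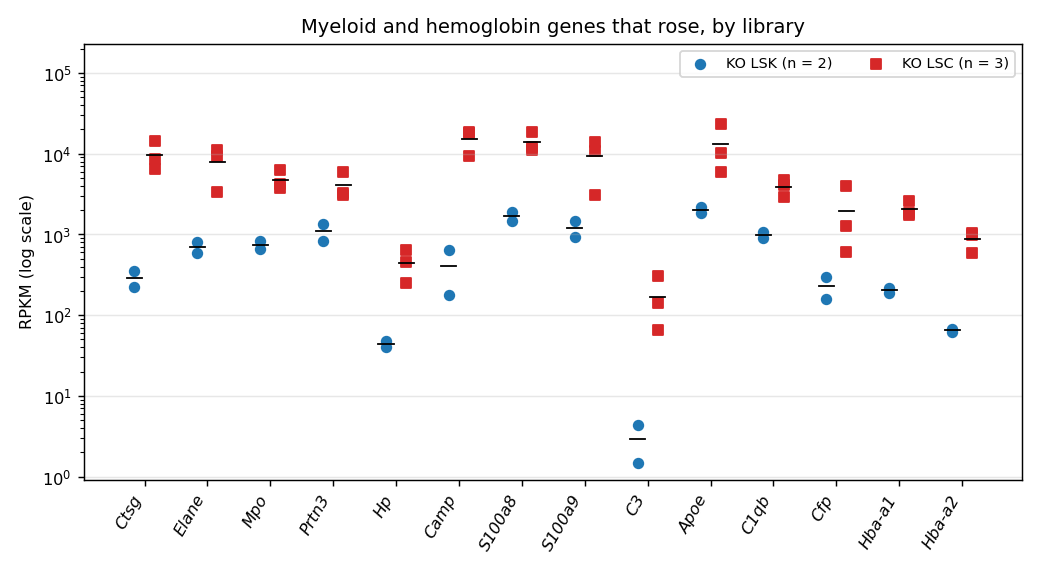
RPKM on a log scale (y axis) of 14 myeloid and hemoglobin genes that rose (x axis), with circles for the 2 KO LSK libraries, squares for the 3 KO LSC libraries and bars for the group means. As for all 73 rises, no gene overlaps between the groups, and C3, with 1.48 and 4.38 RPKM, has the lowest naive values.

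Of 19 erythroid genes, 4 were members, of which 2 rose and 0 fell, against 10.8% and 7.7% of all members. Over all 18 tested genes of the list 2 rose and 7 fell, against 0.564% and 61.7% of all tested genes. Hba-a1 and Hba-a2, the near-identical alpha-globin genes whose reads the counting may have split between them, both rose. Hba-a1 was at 1867, 1719 and 2569 RPKM in KO LSC 1 to 3 against 188 and 217 (log2 difference 3.32, SE 0.55, adjusted p = 0.00125), and Hba-a2 at 992, 1056 and 591 against 61.5 and 68.4 (log2 difference 3.70, SE 0.72, adjusted p = 0.00284). Both passed with each library left out. Hbb-b1, a beta-globin gene, was at 297, 16.7 and 305 RPKM against 729.8 and 480.4 and did not pass (log2 difference −2.34, SE 1.25, adjusted p = 0.135). The beta-globin feature named Beta-s overlapped between the groups as well, at 234, 60.2 and 413 against 261 and 195. The summed RPKM of the erythroid list was 3859, 2959 and 4000 in KO LSC against 3907 and 3497 in KO LSK, so the list as a whole was no higher. Alas2, the enzyme gene of heme synthesis, was at 0.003 in all 3 KO LSC libraries and in both KO LSK libraries too.

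Nuclear genes of the respiratory chain that passed among the members all rose. Of 77 listed, 24 were members, of which 5 rose and 0 fell, against 10.8% and 7.7% of all members. The median log2 difference of these members was 1.03, with 18 differences above 0 and 6 below. Over all 77 tested genes 5 rose and 16 fell, against 0.564% and 61.7% of all tested genes. Uqcrq, a subunit of complex III, was at 4890, 14142 and 5543 RPKM in KO LSC 1 to 3 against 773 and 1313 in KO LSK (log2 difference 2.85, SE 0.57, adjusted p = 0.0032). Atpif1, the inhibitor of the ATP synthase, was at 11528, 10535 and 17238 RPKM against 2352 and 3209 (log2 difference 2.22, SE 0.37, adjusted p = 0.00132). These 2 kept their calls with each library left out, while Ndufc1 and Ndufb3 of complex I, both at a log2 difference of 2.59, and Uqcr11 of complex III, at 1.47, did not. Outside the set, 54, 60 and 29 of the 77 were detected in KO LSC 1 to 3, and Ndufa11, at 523 and 768 RPKM in KO LSK, was at 0.003 in all 3 leukemic libraries and fell, as did Ndufb11 and Sdhd. Of the 4 members among the mitochondrial ribosome genes, Mrps18c alone rose and 0 fell, against 10.8% and 7.7% of all members. Mrps18c was at 1609, 4941 and 5619 RPKM against 431 and 578 (log2 difference 2.83, SE 0.68, adjusted p = 0.00754). Over all 49 tested genes of the list 1 rose and 23 fell, against 0.564% and 61.7% of all tested genes.

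Of the 13 mitochondrially encoded genes, 12 were members, of which 3 rose and 1 fell, against 10.8% and 7.7% of all members (median log2 difference 0.69, and −0.17 after quantile normalization). CYTB, the cytochrome b gene, was at 21978, 7150 and 17842 RPKM in KO LSC 1 to 3 against 2417 and 3697 (log2 difference 2.24, SE 0.59, adjusted p = 0.0121). ND2 (log2 difference 2.17, SE 0.74, adjusted p = 0.0332) and COX1 (1.35, SE 0.42, adjusted p = 0.0245) rose as well, but CYTB and ND2 lost their calls without KO LSK 1 and COX1 without either naive library, KO LSC 1 or KO LSC 3. None of the 3 passed after quantile normalization, with CYTB at 1.32, ND2 at 1.46 and COX1 at 0.02. ATP8, a small subunit of the ATP synthase, fell, at 882, 627 and 776 RPKM against 2109 and 2144 (log2 difference −1.49, SE 0.39, adjusted p = 0.0113), and kept that call with each library left out. Its partner ATP6, whose reading frame overlaps it on the same transcript, was at 5705, 5378 and 7018 against 3906 and 5558 and did not pass. The list held 7.11%, 2.62% and 6.56% of the summed RPKM in KO LSC 1 to 3 against 2.04% and 2.61% in KO LSK, so that the library labelled KO LSC 2 stood at the naive level.

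Cytosolic ribosomal protein genes gave 76 members of 80 listed, the most of any list. Of these 8 rose and 1 fell, close to the 10.8% and below the 7.7% of all members, with 41 differences above 0 and 35 below and a median of 0.21. Rps9 was at 12313, 17143 and 13415 RPKM in KO LSC 1 to 3 against 3563 and 5381 (log2 difference 1.69, SE 0.36, adjusted p = 0.00446), and Rps18 at 6459, 5838 and 13506 against 1383 and 1924 (log2 difference 2.29, SE 0.50, adjusted p = 0.00497). Both kept their calls with each library left out, but Rps9 did not pass after quantile normalization (0.72, adjusted p = 0.251). The ribosomal genes held a share of 10.4% to 12.7% of the leukemic libraries against 6.88% and 9.07% of the naive ones. Reads of processed pseudogenes may be split from their parents here, as for Rpl31 and Rpl31-ps12, which rose by a log2 difference of 2.57 and 2.28.

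Among the members, translation factors gave calls in both directions, and chaperone and stress-response genes gave rises alone. Eef2, which moves the ribosome along the message, was at 109.9, 128 and 42.3 RPKM in KO LSC 1 to 3 against 649 and 659.9 in KO LSK and fell (log2 difference −2.94, SE 0.72, adjusted p = 0.0087). Pabpc1, the poly(A)-binding protein gene, was at 106, 238 and 59.0 RPKM against 492 and 692 and fell (log2 difference −2.34, SE 0.76, adjusted p = 0.0284), though not without either naive library or after quantile normalization (adjusted p = 0.0533). Eef1b2, which reloads elongation factor 1 with GTP, rose (log2 difference 1.89, SE 0.53, adjusted p = 0.0156) under the same limits. Over the 12 members of the 35 translation genes, 1 rose and 2 fell, against 10.8% and 7.7% of all members, with a median of −0.53. Over all 35 tested genes of the list 1 rose and 14 fell, against 0.564% and 61.7% of all tested genes. Of 12 chaperone and stress-response members of 30 listed, 3 rose and 0 fell, against 10.8% and 7.7% of all members (median 1.07). Over all 29 tested genes of the list 3 rose and 10 fell, against 0.564% and 61.7% of all tested genes. Hsp90ab1, a cytosolic chaperone gene, was at 3759, 4206 and 4018 RPKM against 1387 and 1632 (log2 difference 1.41, SE 0.28, adjusted p = 0.0034). Hspa8 (log2 difference 1.60, SE 0.58, adjusted p = 0.0425) and its co-chaperone gene Dnaja1 (2.18, SE 0.70, adjusted p = 0.0275) rose, and both lost the call without either naive library. After quantile normalization Hsp90ab1 (0.58) and Hspa8 (1.29) did not pass, and after centring neither Dnaja1 nor Hspa8 did. The heat-inducible Hspa1a and Hspa1b were at 147, 14.6 and 99.6 and at 160, 59.0 and 0.767 RPKM in KO LSC 1 to 3, against 1.92 to 6.40 in KO LSK, and neither passed, although Hspa1a did after quantile normalization (6.06, adjusted p = 0.00228). Xbp1, Ddit3 and Ppp1r15a, effectors of the unfolded protein response, were at 0.003 in all 3 leukemic libraries and fell, Ddit3 not after quantile normalization.

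Arglu1, Ythdc1, Baz2a and Malat1 also rose, and they form no list of their own. Arglu1, a coactivator and splicing regulator, was at 982, 234 and 1159 RPKM in KO LSC 1 to 3 against 44.5 and 65.3 in KO LSK (log2 difference 3.55, SE 0.91, adjusted p = 0.0104). Ythdc1, a nuclear reader of methylated adenosine in RNA, was at 744, 596 and 200.3 RPKM against 28.5 and 39.6 (log2 difference 3.69, SE 0.83, adjusted p = 0.00564). Baz2a, part of a complex that silences ribosomal DNA, was at 67.3, 72.8 and 254 RPKM against 8.86 and 8.01 (log2 difference 3.53, SE 0.82, adjusted p = 0.00656). Of these 3 genes, Arglu1 alone lost its call when a library, KO LSK 1, was left out. Malat1, a long nuclear RNA of splicing speckles, was at 17155, 4633 and 5971 RPKM against 1084 and 1096 (log2 difference 2.84, SE 0.64, adjusted p = 0.00563). Of the 13 members of the 36 listed splicing genes, 1, Arglu1, rose and 0 fell, against 10.8% and 7.7% of all members, and their median was −0.58, or 0.76 after quantile normalization.

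Actin and tubulin genes that passed were all lower. All 12 members of the 36 listed had a difference below 0 in the values as deposited, 5 of them fell, against 7.7% of all members, and 0 rose, with a median log2 difference of −1.76, or -1.52 after quantile normalization. Actg1 (gamma actin) was at 0.492, 0.939 and 0.983 RPKM in KO LSC 1 to 3 against 258 and 190.1 in KO LSK, the largest fall of all members (log2 difference −6.96, SE 0.77, adjusted p = 1.35e-04). Values under 1 RPKM correspond to few reads, and near-identical actin pseudogenes may take reads from this gene. Actb (beta actin), at 654, 1054 and 1267 RPKM against 1849 and 1856, was lower by a much smaller log2 difference, −0.95, SE 0.47, adjusted p = 0.11, and did not pass. Tuba1b, an alpha-tubulin gene, was at 183, 199.8 and 76.3 RPKM against 707 and 727 (log2 difference −2.34, SE 0.69, adjusted p = 0.0194). Tubb5, a beta-tubulin gene, was at 204, 18.8 and 60.6 RPKM against 546 and 585 (log2 difference −3.16, SE 1.03, adjusted p = 0.028). Tuba1a and Coro1a, the gene of an actin-binding protein of leukocytes, fell by 2.18 and 1.83 on the log2 scale. These 4 genes lost the call without either naive library, while Actg1 kept it with each library left out. After quantile normalization Actg1 fell short of the threshold, at −1.38 (adjusted p = 0.373), as did Tuba1b at −2.07, Tubb5 at −2.01 and Tuba1a at −0.15. Arpc3, Arpc4 and Lsp1 of the same list were at 0.003 in all 3 leukemic libraries and fell.

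The MHC class I heavy chain genes H2-D1 and H2-K1, whose products present peptides to cytotoxic T cells, fell. H2-D1 was at 317, 229 and 623 RPKM in KO LSC 1 to 3 against 2954 and 2271 in KO LSK (log2 difference −2.86, SE 0.64, adjusted p = 0.0054), and its mean rank went from 95.3 to 56.7. H2-K1 was at 380.2, 790.2 and 86.2 RPKM against 2997 and 2836 (log2 difference −3.29, SE 1.16, adjusted p = 0.0381). H2-D1 kept its call with each library left out and H2-K1 only without the library labelled KO LSC 2. The peptide transporter genes Tap1 and Tap2 and the loading factor Tapbp were at 0.003 in all 3 leukemic libraries and fell. Of 19 listed genes 5 were members, of which 2 fell, against 7.7% of all members, and 0 rose. Of the proteasome genes, which make the peptides, 15 of 36 were members, of which 2 fell, again against 7.7%, and 0 rose (median −0.64): Psmb7, at 27.9, 54.0 and 5.76 RPKM against 273 and 279, and Psme2 of the activator cap, at 64.2, 18.7 and 36.0 against 156 and 177. Both calls were lost without either naive library and after quantile normalization (Psmb7 −0.98, adjusted p = 0.416), and that of Psme2, which turned to 0.39 after quantile normalization, also without KO LSC 3 or the library labelled KO LSC 2.

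**Figure D4:**
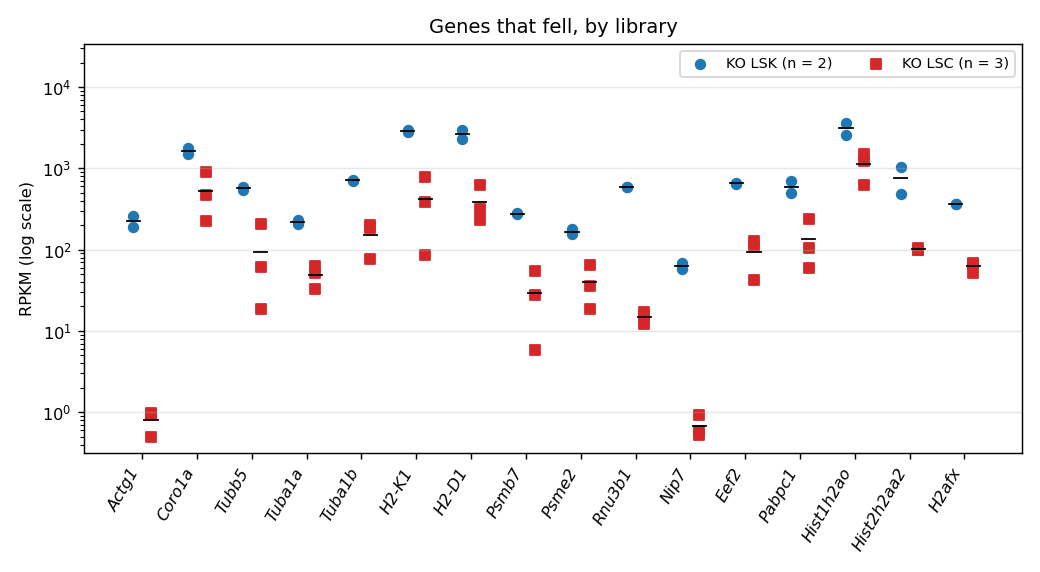
RPKM on a log scale (y axis) of 16 genes that fell (x axis), with circles for the 2 KO LSK libraries, squares for the 3 KO LSC libraries and bars for the group means. The groups are separate for every gene shown, as for all 52 falls, and Actg1 and Nip7 are under 1 RPKM in all 3 KO LSC libraries.

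U3 small nucleolar RNA guides the first cuts of the ribosomal RNA precursor. Its copy Rnu3b1 was at 15.5, 12.3 and 17.2 RPKM in KO LSC 1 to 3 against 588 and 584 in KO LSK, a fall that was even over the libraries of each group (log2 difference −5.21, SE 0.74, adjusted p = 5.13e-04). The copies Rnu3b2, Rnu3b4 and Rnu3b3 fell by 4.23, 4.08 and 2.90, and after quantile normalization Rnu3b2 turned to 0.56 (adjusted p = 0.728) and Rnu3b4 lost its call at −1.77 (adjusted p = 0.187), whereas Rnu3b1 kept it at −3.04. Since the copies are near identical their reads may have been split between them. A poly(A)-primed protocol is not built for such short RNAs, so these values are uncertain. Nip7, a factor of large-subunit assembly, was at 0.532, 0.931 and 0.591 RPKM against 57.8 and 68.6 (log2 difference −5.25, SE 0.57, adjusted p = 1.19e-04, or 1.49 after quantile normalization, which turns the sign). Slc25a5, the ADP/ATP carrier of the mitochondrial membrane, was at 136, 30.1 and 0.412 RPKM against 723 and 967 (log2 difference −5.52, SE 1.70, adjusted p = 0.0227), with KO LSC 3 almost empty, and did not pass without either naive library. Among glycolysis genes Eno1, the enolase gene, was at 38.7, 5.48 and 23.2 RPKM against 192 and 203 and fell (log2 difference −3.43, SE 0.94, adjusted p = 0.0139, or −0.25 and no call after quantile normalization), while Gapdh, at 19.6, 33.8 and 34.3 against 93.0 and 109, missed the threshold (adjusted p = 0.0662). Aldoa, the aldolase gene, was at 514, 2199 and 522 against 647 and 743 and did not pass, so the 3 members of 21 listed did not move alike.

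The lymphoid transcripts Ighm and Trac fell. Ighm, the heavy chain gene of immunoglobulin M, was at 321, 6.93 and 0.248 RPKM in KO LSC 1 to 3 against 917 and 1668 in KO LSK (log2 difference −6.39, SE 2.11, adjusted p = 0.0298), and lost its call when any library except KO LSC 1 was left out. Trac, the constant segment of the T cell receptor alpha chain, was at 0.598, 0.571 and 0.798 RPKM against 18.7 and 21.7 (log2 difference −3.68, SE 0.36, adjusted p = 6.72e-05, or 3.16 after quantile normalization, which turns the sign). B cell and plasma cell genes summed to 774, 5310 and 0.248 RPKM over KO LSC 1 to 3 against 4379 and 10039 in KO LSK. T and NK cell genes summed to 318, 146 and 0.798 against 943 and 771. Cd79a and Cd3e, defining lymphoid markers, were at 0.003 in all 3 KO LSC libraries. Cd79b was at 1594 RPKM and Cd3d at 146 in the library labelled KO LSC 2 and both were at 0.003 in KO LSC 1 and 3. The part of lymphoid cells in the naive and leukemic values was not tested.

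Fth1 shows how 1 library can carry a difference. The gene, which encodes the ferritin heavy chain, was at 1324, 783 and 1.35 RPKM in KO LSC 1 to 3 against 5080 and 5430 in KO LSK. Although the groups were separate, the value of KO LSC 3 was a small fraction of the others, and the gene did not pass (log2 difference −5.29, SE 2.40, adjusted p = 0.0885), although it did after quantile normalization (−4.12). Ftl1, the ferritin light chain gene, was at 6587, 4105 and 4.69 against 2920 and 3591, again with KO LSC 3 alone near 0. Of 7 members of the 27 redox and ferritin genes 0 passed in either direction.

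Genes that define stem cells were not among the members. None of 40 stem cell identity genes was above the lowest value in all 5 libraries, although all 40 were in both KO LSK libraries. At 0.003 in all 3 KO LSC libraries were 33 of them, against 70.8% of all features seen in both KO LSK libraries. Of the 40, 35 fell, against 61.7% of all tested genes. The highest of them in naive cells were Lmo2, a stem cell transcription cofactor, at 776 and 502 RPKM, and Egfl7, at 653 and 566. Of the genes still seen, Ifitm3, an interferon-induced membrane protein gene, was at 1384, 4045 and 0.003 RPKM in KO LSC 1 to 3 against 2118 and 3106, and Lyl1 at 255 RPKM in the library labelled KO LSC 2 alone. The 20 myeloid transcription factor genes gave 0 members and 17 at 0.003 in all 3 leukemic libraries, against 70.8% of all features seen in both KO LSK libraries, with Nfe2 and Irf8 among them. The 33 listed genes of STAT5 and BCR-ABL1 signalling gave 0 members, and of the 32 seen in both KO LSK libraries 22 were at the lowest value in all 3 leukemic ones, a share close to that 70.8%, among them Ccnd2, a cyclin gene, at 795 and 766 RPKM in KO LSK. A low level cannot be told from no level in these libraries.

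The WT leukemia comparison, which uses other libraries, gave similar differences for many members. Over the 647 members detected in all 10 libraries the 2 sets of log2 differences had a Pearson r of 0.534 and a Spearman rho of 0.481, as a description over genes that share library depth within each group. In WT, 75 of the 675 tested members rose (11.1%) and 18 fell (2.67%), and the median difference was 0.57. Of the 73 rises in KO, 72 were also above 0 in WT and 38 passed there. Of the 52 falls, 44 were below 0 in WT and 13 passed. Ctsg had a log2 difference of 4.38 in WT and 5.03 in KO, and Elane 3.18 and 3.35. H2-D1 was at −3.59 and −2.86, and Actg1 at −5.32 and −6.96. The rises of granule genes and the falls of these 2 genes were therefore present in both genotypes.

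The difference between the KO and the WT leukemia effect was tested in the same limma model of 10 libraries. Among the 675 members it was lower in KO for 3 (0.444%) and higher for 0 (0.0%), and 48 had an unadjusted p under 0.05 in either direction (7.11%), while over all tested genes 694 were lower (5.15%) and 126 higher (0.934%). The 3 were Nip7, Acta2 and AA667203, the last under 1 RPKM in all 3 KO LSC libraries. Acta2 reached 1 RPKM in the WT LSC libraries alone, so it was tested only through the group where it is high and supports nothing here. Nip7 was at 24.6, 14.7 and 25.4 RPKM in WT LSC 1 to 3 and at 69.7 and 49.6 in WT LSK, so its fall in KO to under 1 RPKM was larger by 3.81 on the log2 scale (SE 0.80, adjusted p = 0.0323). The count depended on the settings: centring each library left 0, a pseudocount of 0.1 gave 9, and leaving out 1 library gave 1 to 10.

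Core histone genes pointed in opposite directions in the 2 genotypes, a pattern chosen after the values were seen. Of 32 members named Hist1, Hist2 or Hist3, 29 were lower in KO LSC than in KO LSK, 7 fell, against 7.7% of all members, and 0 rose, while all 32 were higher in WT LSC than in WT LSK. The median log2 difference was −1.18 in KO and 1.29 in WT. It turned to 0.48 in KO after quantile normalization, so the sign in KO depends on the scaling. Hist2h2aa2 was at 98.1, 104 and 98.8 RPKM in KO LSC 1 to 3 against 489.7 and 1041 in KO LSK (log2 difference −2.82, SE 0.67, adjusted p = 0.00715). Hist1h2ao was at 1242, 1498 and 632 RPKM against 2599 and 3613 (log2 difference −1.54, SE 0.49, adjusted p = 0.0261). No test of the difference between the genotypes passed, and the smallest adjusted p was 0.0558 (limma). Replication-dependent histone messages carry no poly(A) tail and their copies are near identical, so counting may split them and the protocol may miss them. The histone variant genes H2afx and H2afy fell by 2.54 and 3.05, whereas H2afj rose (log2 difference 2.28, SE 0.51, adjusted p = 0.00538). After quantile normalization H2afx (−1.41) and H2afj (1.41) did not pass.

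**Figure D5:**
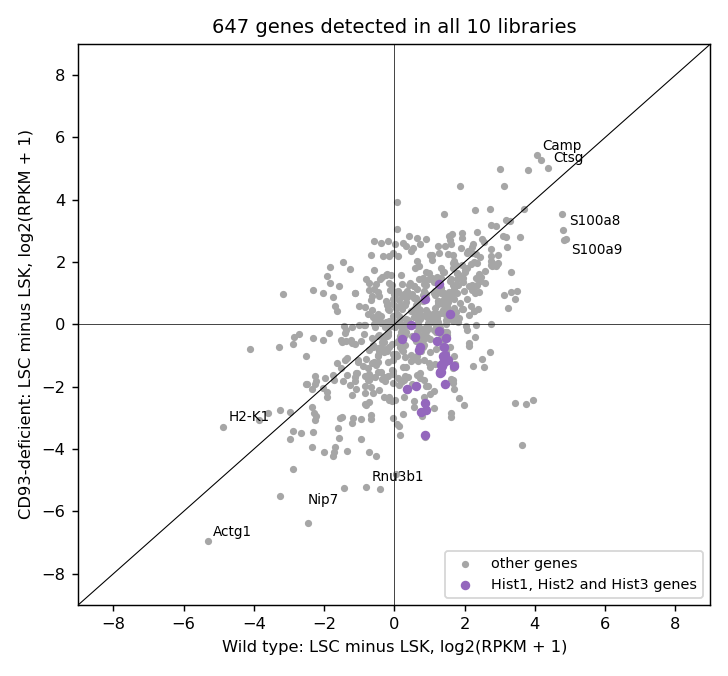
Log2 differences between LSC and LSK of 647 members, with WT on the x axis and CD93-deficient cells on the y axis, both in log2(RPKM + 1); the diagonal marks equal differences. Ctsg and Camp lie near the upper end, Actg1 near the lower, and the purple histone points lie right of 0 on the x axis and mostly below 0 on the y axis.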

How the data were processed

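Per the labels' protocols, total RNA of sorted cells was made into libraries with the SMART-Seq v4 kit. This kit primes on poly(A) tails. The authors mapped to GRCm38 (mm10), per the submitters' processing notes. No aligner, counter or annotation is named in the sources used here. The deposited values of the 10 libraries of the CD93 experiment were read as RPKM, inferred from the values, with 0.003 as no signal. The 6 libraries of the drug experiment were not used. Features sharing a name (454) were kept apart, and 9548 features at the lowest value in all 10 libraries were removed by the filter.

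Values were analysed as log2(RPKM + 1) with limma 3.58.1 in R 4.3.3, with 1 mean per group over the 10 libraries and an intensity trend in the variance prior. The 13485 genes that reached 1 RPKM in 2 or more libraries were tested two-sided, with Benjamini-Hochberg adjustment over all of them and a threshold of 0.05. Every adjusted p in the text is from this model unless it says otherwise. Ranks were taken among the members of a library and tested as normal scores over the 5 KO libraries. The plan allowed for counts; none were found, so the planned tests for counts were left out. Simulated data were used to check the model.

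Depth was estimated from the step between low values that genes share between libraries and has no error attached. No counting interval was computed from it.

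The members and gene lists were chosen with earlier results of these data known. Of 1177 list entries 1147 matched by symbol, 12 by synonym and 18 not at all. Named genes were Cd93, Kit and Ly6a, the 12 largest rises and 12 largest falls among called members with a mean of 5 RPKM or more in the higher group and separate in value and rank, the 10 highest median ranks in KO LSC and, per list, up to 4 members with the smallest p and up to 3 genes high in KO LSK that read 0.003 in each KO LSC library. Cell type markers were given beside these. Genes named outside this rule (ATP6, Actb, Cfp, Coro1a, Csf3r, Ftl1, Hist1h2ao, Hist2h2aa2, Hp, Hspa1b, Ifitm3, Lyl1, Malat1, Rnu3b3, Rpl31-ps12, Srgn, Uqcr11 and the genes whose genotypes differed) were chosen after their values were seen. The values of some genes are not reported here. Positions are from GENCODE M21, and promoter windows from RefSeq on GRCm38.p6; of 13 genes looked up, 12 had a window, and windows that overlap an exon are not printed.

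Alternatives were quantile normalization, centring, a pseudocount of 0.1, no filter, a mean of 5 RPKM or more, a block for the replicate number, only the 5 KO libraries, only the members, library weights and each library left out in turn. The fits on the members in the 5 KO libraries alone were added after the data were seen.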

Additional observations from a re-analysis of the deposited data

Results flagged for a closer look

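For 3 members the leukemia difference was lower in KO than in WT cells by the interaction term of the limma model with Benjamini-Hochberg adjustment. Nip7, a ribosome assembly factor, differed by −3.81 (SE 0.80, adjusted p = 0.0323): it was at 0.532, 0.931 and 0.591 RPKM in KO LSC 1 to 3 and at 24.6, 14.7 and 25.4 in WT LSC 1 to 3. Acta2, the smooth muscle actin gene, passed the filter on low values only through the WT LSC libraries where it is high, so its difference is a description and no test: it was −1.32, at 0.245, 0.234 and 0.326 RPKM in KO LSC against 2.0, 2.58 and 1.90 in WT LSC and 0.115 to 0.163 in the LSK libraries. AA667203, an unnamed gene model, differed by −2.70 (SE 0.60, adjusted p = 0.0405), at 0.514, 0.982 and 0.799 RPKM in KO LSC against 11.6, 4.01 and 4.91 in WT LSC. The WT LSC values of AA667203 are by themselves enough to pass the filter, so its difference is also read as a description. The interaction draws on the LSK libraries too, whose values for AA667203 are not given here. An estimated 2 reads stand behind each KO LSC value of Acta2.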

How the results depend on the processing

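Every count of calls moved with some setting, and why was not tested. Of the members, 73 rose and 52 fell. The counts were 219 and 33 after quantile normalization, 44 and 32 with only the 5 KO libraries in the model, and 0 and 5 with library weights. Falls numbered 31 when the fit held the members alone and 32 when at least 1 RPKM in all 5 libraries was asked. In the fit on the members and 5 KO libraries, chosen after the data were seen, the counts were 6 and 9, or 6 and 13 with centring. Library weights are taken as not usable here, since KO LSC 1 to 3 were given weights of 31.8, 75.8 and 70.7 against 0.102 to 0.285 elsewhere. Why the weights lay so far apart was not tested.

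Leaving out each library in turn gave 31 to 104 rises and 20 to 75 falls among members, and 32 to 140 rises and 6271 to 8293 falls among all tested genes. Over all tested genes the 76 rises became 225 and the 8315 falls 5170 with quantile normalization. Rises were 46 with only the 5 KO libraries, and falls 5323 with a mean of at least 5 RPKM, which tests fewer genes. In the rank test 0 calls became 1 rise with untransformed percentile ranks and 1 with at least 1 RPKM. Ranking among all features gave 253 rises and 32 falls, and leaving out libraries 0 to 15 rises and 0 to 14 falls. The 3 lower interactions became 6 with quantile normalization, 0 with centring, 9 with a pseudocount of 0.1 and 0 in the fit of the members alone. Leaving out libraries gave 0 to 3 higher and 1 to 10 lower interactions.

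The replicate number as a block gave 45 rises among members and 0 lower interactions. Deviations of same-numbered KO LSC and KO LSK libraries correlated at 0.005 and 0.034. The deviations of the 2 KO LSK libraries mirror each other, so this check cannot decide whether the numbers pair the samples.

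Quantile normalization turned the sign of 10 named genes that passed before or after it: Nip7 (1.49), Rnu3b2 (0.56), Emc2 (1.42), Snx2 (1.35), Tug1 (2.76), Mdp1 (1.47), Trac (3.16), Psme2 (0.39), Impdh2 (2.35) and Cbx3 (3.84). Signs of genes that passed in neither, such as Rnr2 (−0.03), are not counted, and 32 further named genes lost their call. No other setting turned a called sign. The DESeq2 alternative was not run, since no counts were found. Values under about 1 RPKM in KO LSC rest on few reads. Detection was also lost at higher levels: the 698 features missing only from KO LSC 3 had a median of 119 RPKM in the other 4 libraries. Why they were missing was not tested.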
